A study of Drosophila melanogaster with 3 samples.

Results

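The Dpr, DIP, Beat and Side genes encode cell surface and secreted proteins of the immunoglobulin superfamily that neurons use to recognise their partners while circuits are wired. They were taken by gene symbol, as dpr followed by a number or as names beginning with DIP-, beat- or side, and 42 of the 11922 genes with values in AKHR+ neurons met this rule. These were 19 Dpr genes, 1 DIP gene, 14 Beat genes and 8 Side genes. The annotation lists 54 genes of these names. The other 12, which are dpr1, dpr21 and 10 of the 11 DIP genes (DIP-alpha to DIP-iota and DIP-lambda), are not analysed here.

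In the fly brain, AKHR+ neurons respond to adipokinetic hormone, which signals hunger. The 3 libraries form a single group, with no second genotype, diet or age beside it. All came from nSyb-AD-AKHR-BD-GAL4;UAS-mCD8gfp flies, aged 5 days and kept on normal food, in which membrane GFP is made where the neuronal nSyb promoter and the AKHR promoter are both active. Marked cells were drawn from dissected brains into a glass pipette and sequenced as amplified full-length cDNA. Each library is called a cell here, although the treatment label speaks of pooled single cells, and no source says whether the cells came from different flies. SDs below are therefore spreads between 3 libraries, which may be technical.

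Dpr and DIP proteins form a network in which most Dprs bind 1 or a few DIPs, so that a Dpr on a neuron can be matched by a DIP on its synaptic partner. In the fly visual system and at the neuromuscular junction such pairs guide the choice of partners and keep some neurons alive. Beat and Side proteins form a second network of the same kind. It was first described for Beat-Ia on motor axons and its partner Side, which draws those axons toward muscle. Different neuron types are known to carry different sets of these genes.

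Expression was given as FPKM, a fragment number divided by exon length and by the mapped total, so that levels can be compared between genes of a cell. A gene was called detected at an FPKM of at least 1. Depth was not stated. The steps between low values gave uncertain estimates of 6630000, 6270000 and 6550000 fragments in cells 1, 2 and 3. AkhR, the gene that marks these neurons, was at 14.7, 1.90 and 2.52 FPKM. The 6 neuronal markers measured (elav, Syt1, brp, Syx1A, cac and futsch) were detected in every cell, at 4.36 to 675 FPKM. Markers of other cells were present as well. The summed FPKM was 1940 to 2939 for 6 glial markers and 2483 to 6749 for 6 photoreceptor markers, against 627 to 837 for the neuronal markers. These sums rest in large part on a few high genes, such as ninaE (1217, 3838 and 1626 FPKM), Arr2 (1816, 2722 and 810) and nrv2 (1585, 770 and 1764). The median FPKM per marker in cells 1, 2 and 3 was 196, 227 and 298 for glial markers. It was 39.5, 67.0 and 15.1 for photoreceptor markers and 21.9, 53.1 and 38.2 for neuronal markers. All 6 photoreceptor markers and 5 of the 6 glial markers were detected in all 3 cells. The yolk genes Yp1, Yp2 and Yp3 ran from 4223 to 14272 FPKM, and the fat body gene Lsp2 was at 128, 94.7 and 240.2 FPKM, while the fat body genes Fbp1 and Fbp2 were listed at 0. Fewer cells of a type and less RNA per cell cannot be told apart if several cells were pooled. The part of these other cell types in the values below was not tested.

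Most of the wiring genes were found in most cells. In cell 1, 33 of the 42 were detected, in cell 2 it was 38 and in cell 3 it was 41. Over all genes the detected share was 36.8% in cell 1, 50.7% in cell 2 and 47.2% in cell 3, against 78.6%, 90.5% and 97.6% for the wiring genes. In all 3 cells 30 of the 42 were detected (71.4%), against 31.1% of all genes. These 30 comprised 15 of the 19 Dpr genes, 10 of the 14 Beat genes and 5 of the 8 Side genes. A further 11 were detected in 2 cells, and 1 gene, side, was listed at 0 in every cell. In at least 1 cell 41 of the 42 were thus detected, against 57.7% of all genes. At an FPKM of at least 10, 17 of the 42 were detected in all 3 cells, against 20.6% of all genes.

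**Figure D1:**
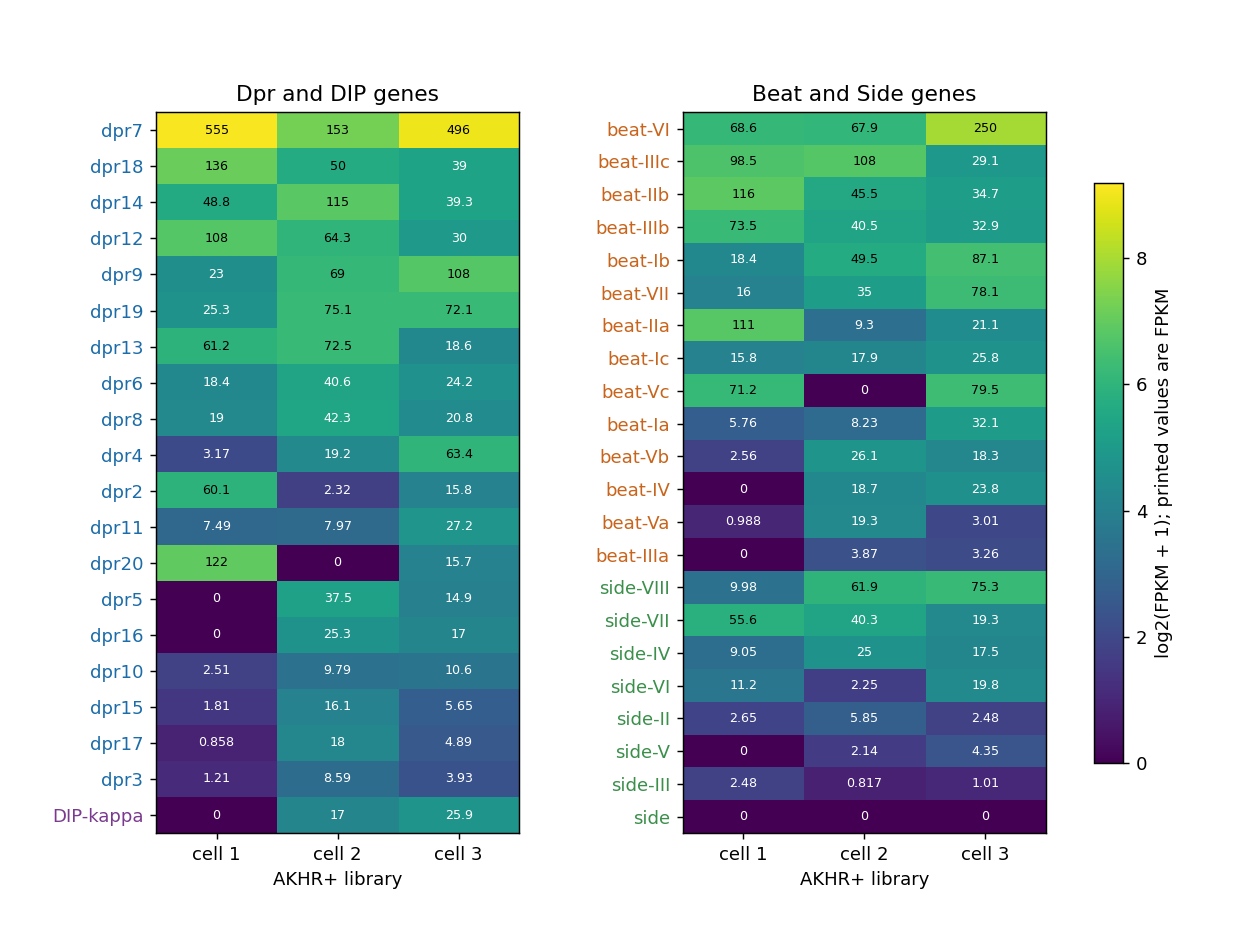
FPKM of the 42 wiring genes in each of the 3 cells, coloured by log2(FPKM + 1) and ordered within each subfamily by the mean log2 value. The gene dpr7 is the brightest row in every cell, at 555, 153 and 496, and side is at 0 in all 3.

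The levels of the detected members lay on both sides of those of other genes. The median FPKM of genes above 0 was 31.0, 21.7 and 23.4 in cells 1, 2 and 3, and 14 of the 35, 21 of the 39 and 21 of the 41 wiring genes above 0 lay over it. Together they made up 0.382%, 0.277% and 0.354% of the summed FPKM of a cell. Averaged over genes, log2(FPKM + 1) was 3.63, 4.23 and 4.47 for the wiring genes and 1.91, 2.40 and 2.32 for all genes, a within-cell difference of 1.90 ± 0.22 (SD, n = 3). All of these genes enter, also those at 0.

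Cell 1 lacked the most members. Listed at 0 were 7 of the 42 in cell 1, 3 in cell 2 and 1 in cell 3, against 58.3%, 46.8% and 49.2% of all genes. In cell 1 alone 6 members were at 0 (9.07% of all genes), in cell 2 alone it was 2 (1.95%) and in cell 3 alone 0 (2.06%). Of the 11 genes detected in exactly 2 cells, a class that held 14.8% of all genes, 8 were missing in cell 1, 3 in cell 2 and 0 in cell 3. Of all 1760 genes of this class, 71.5% were missing in cell 1, a share close to that of the members. Between their highest and lowest cell, the wiring genes detected in all 3 cells differed by a median of 1.88 on the log2 scale of FPKM, and all genes detected in all 3 cells by 1.66.

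**Figure D2:**
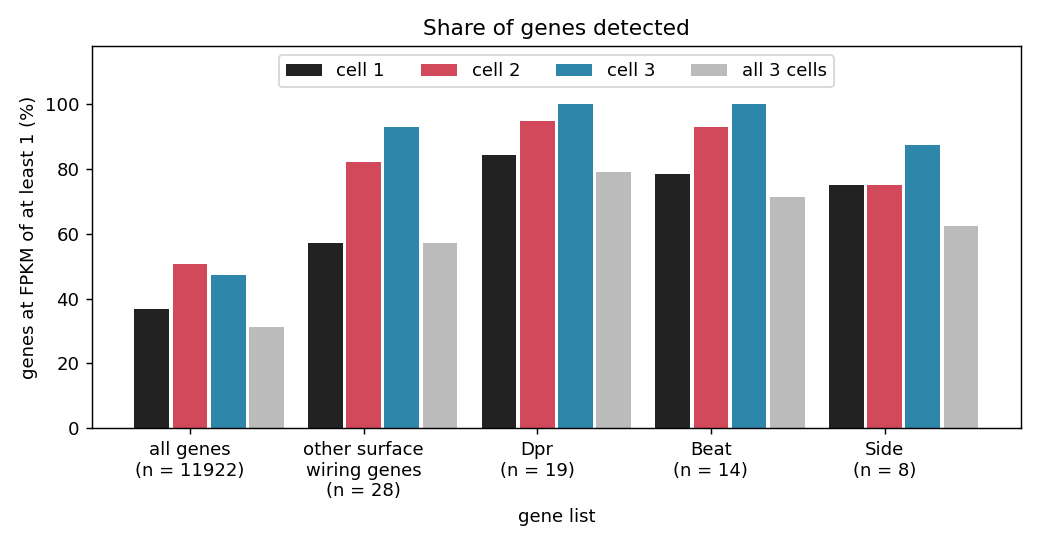
Share of genes at an FPKM of at least 1 (%) in each cell and in all 3 cells, for all 11922 genes, 28 other surface wiring genes and the Dpr, Beat and Side genes. In all 3 cells 78.9% of Dpr, 71.4% of Beat and 62.5% of Side genes were detected, against 31.1% of all genes.

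Other surface proteins used in wiring were measured for comparison. Of a list of 43 such genes 28 had values, and 16 of them (57.1%) were detected in all 3 cells. The list was chosen with earlier results of these data known. The highest by mean log2 value were Lac, tutl, Nrx-1, Fas2 and klg, and of these Lac and klg encode immunoglobulin superfamily proteins related to the DIPs. Lac was at 62.6, 56.8 and 31.5 FPKM in cells 1, 2 and 3. The netrin gene NetA and Ama were listed at 0 in every cell. The mean log2 level of the Dpr, DIP, Beat and Side genes exceeded that of these 28 genes by 1.33, 0.90 and 1.12 in cells 1, 2 and 3. This was not so for each subfamily. The 28 genes minus the Side genes gave -0.18, 0.45 and 0.30, so the Side genes lay below them in cells 2 and 3.

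Among the Dpr genes, dpr7 stood apart. It lies on chromosome 4 from 247124 to 253329 on the minus strand (BDGP6, gene FBgn0053481) and is the only 1 of the 42 on that chromosome. In cells 1, 2 and 3, dpr7 reached 555, 153 and 496 FPKM (mean 401.6 ± 217, SD, n = 3). No other wiring gene was higher in any of the 3 cells. It made up 46.5%, 18.5% and 48.3% of the summed FPKM of the Dpr genes, and exceeded the next Dpr gene 4.09, 1.33 and 4.60 times, which was dpr18, dpr14 and dpr9 respectively. The order rests in part on length, since the annotated exons of dpr7 span 1515 bases, the fewest of all 42 genes. By estimated fragments, which are not divided by length, dpr7 was first in cells 1 and 3 (about 5136 and 4535 fragments) of all 42 genes, and 8th in cell 2 (about 1339), where dpr14 had about 1972.

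A second tier of Dpr genes was detected at 10 FPKM or more in every cell. The gene dpr18 was at 136, 50.0 and 39.0 FPKM in cells 1, 2 and 3. For dpr14 the FPKM was 48.8, 115 and 39.3. In these genes cell 3 was the lowest, but different cells were the highest.

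The FPKM of dpr12, whose protein binds DIP-delta and helps to build zones of the mushroom body, was 108, 64.3 and 30.0. It was 61.2, 72.5 and 18.6 for dpr13. The genes dpr9 and dpr19 ran the other way, with cell 1 lowest. In cells 1, 2 and 3 dpr9 was at 23.0, 69.0 and 108, and dpr19 was at 25.3, 75.1 and 72.1.

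Cell 2 was highest for dpr6, at 18.4, 40.6 and 24.2 FPKM, and for dpr8, at 19.0, 42.3 and 20.8. These were among the steadiest Dpr genes, with an SD of log2(FPKM + 1) of 0.56 for dpr6 and 0.61 for dpr8 (n = 3). With dpr7 they complete the 9 Dpr genes at 10 FPKM or more in all 3 cells.

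The remaining Dpr genes detected in every cell were lower or less even. Cell 1 was far above the others for dpr2, at 60.1, 2.32 and 15.8 FPKM. Cell 3 was highest for dpr4, at 3.17, 19.2 and 63.4, and for dpr11, at 7.49, 7.97 and 27.2. The gene dpr11 is known from yellow R7 photoreceptors, where its protein meets DIP-gamma on a target neuron. Part of the dpr4 exons (15.7% of their bases) lies under an antisense RNA, and without strand the 2 cannot be told apart.

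Cell 1 was lowest for dpr10, at 2.51, 9.79 and 10.6 FPKM, for dpr15, at 1.81, 16.1 and 5.65, and for dpr3, at 1.21, 8.59 and 3.93. The 1.21 FPKM of dpr3 in cell 1 stands for about 23.8 fragments, the fewest behind any value of a gene detected in all 3 cells. Of the 4 Dpr genes detected in 2 cells, dpr5 (0, 37.5 and 14.9 FPKM) and dpr16 (0, 25.3 and 17.0) were listed at 0 in cell 1, and dpr17 was just under the threshold there (0.858, 18.0 and 4.89). Of the dpr16 exon bases 4.04% are shared with cno on the other strand. The exception was dpr20, at 122 FPKM in cell 1, listed at 0 in cell 2 and at 15.7 in cell 3. In cell 2, 3 fragments would have given dpr20 an FPKM of 0.176.

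Ordered by mean log2 level, the 19 Dpr genes have 18 neighbouring steps. Only the step from dpr7 to dpr18 was larger than its own spread between cells (2.42 ± 1.07 on the log2(FPKM + 1) scale, higher in 3 of 3 cells). Below dpr7, neighbours in this order did not differ beyond their spread. The order was made from these same values, so sorting keeps neighbouring steps small, and they are a description only. Genes farther apart in it were not compared in this way.

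**Figure D3:**
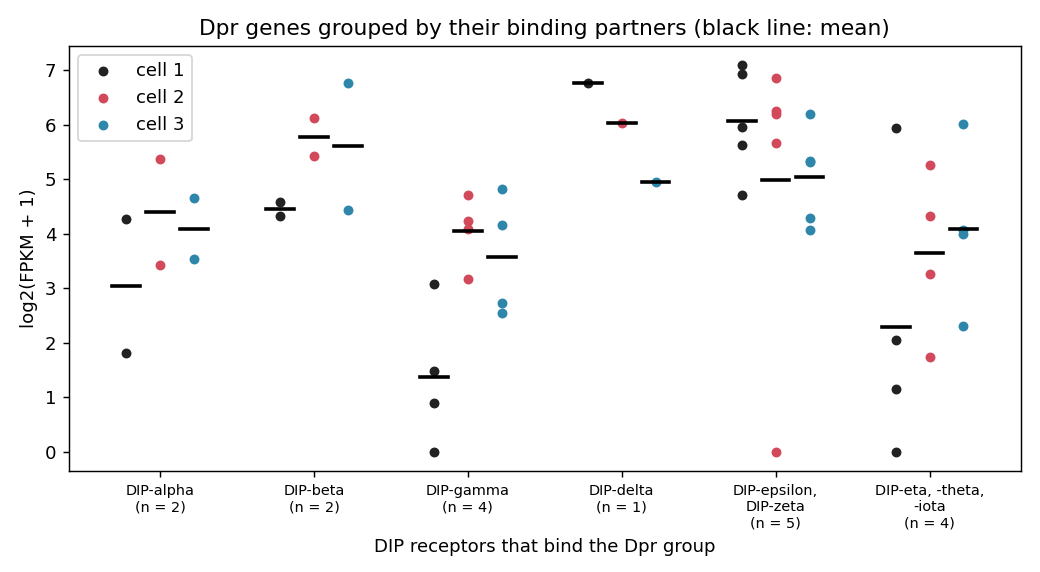
log2(FPKM + 1) of Dpr genes in each cell, grouped by the DIP receptors their proteins are known to bind. The mean of each group is a black line, and dpr7 is in no group. The group of DIP-gamma lies between 1.37 and 4.06 in mean level and the group of DIP-epsilon and DIP-zeta between 5.00 and 6.07.

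Dpr genes were also grouped by the DIPs that their proteins are known to bind. The grouping came from general knowledge of their binding, with earlier results of these data known. Each Dpr was placed in 1 group at most, so other DIPs that it may bind are not counted. The highest Dpr gene in every cell, dpr7, was in none of the groups. The 5 Dprs of DIP-epsilon and DIP-zeta (dpr13, dpr14, dpr18, dpr19 and dpr20) had a mean log2(FPKM + 1) of 6.07, 5.00 and 5.04 in cells 1, 2 and 3. The 4 Dprs of DIP-gamma (dpr11, dpr15, dpr16 and dpr17) had 1.37, 4.06 and 3.57. The former exceeded the latter by 4.70, 0.94 and 1.47, thus in 3 of 3 cells but by very different amounts. Averaged over cells, the former had the highest and the latter the lowest mean level of the groups with more than 1 gene. This contrast therefore takes the extremes of the groups. It was picked from these values, and its direction is a description only. In cell 1 all 5 genes of the first group were detected and 2 of the 4 of the second.

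The other groups held no fixed place beside these. The Dprs placed in the DIP-beta group that were measured, dpr8 and dpr9, had a mean log2 level of 4.46, 5.78 and 5.60 in cells 1, 2 and 3. This was above the group of DIP-epsilon and DIP-zeta in cells 2 and 3. The single Dpr of DIP-delta, dpr12, was at 6.76, 6.03 and 4.95. For dpr6 and dpr10, whose proteins bind DIP-alpha, it was 3.85 ± 0.71. The Dprs of DIP-eta, DIP-theta and DIP-iota that were measured, dpr2, dpr3, dpr4 and dpr5, were at 2.28, 3.65 and 4.09, below the group of DIP-gamma in cell 2 and above it in cells 1 and 3. At least 1 gene of every group was thus detected in every cell. Whether the matching DIPs were present is not analysed here.

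DIP-kappa was the single DIP gene matched to values by its current FlyBase ID. It lies on chromosome 2L from 13676860 to 13717320 on the minus strand (BDGP6, gene FBgn0051814). It was listed at 0 in cell 1 and was at 17.0 FPKM in cell 2 and 25.9 in cell 3. The value in cell 3 stands for about 556 fragments, and 3 fragments in cell 1 would have given 0.138 FPKM. Taking DIP-kappa from the mean log2 level of the Dpr genes left 3.99, 0.54 and -0.06 in cells 1, 2 and 3, so the Dpr genes exceeded it clearly only where it was listed at 0. As 1 gene cannot stand for a family, no comparison of Dprs with DIPs follows.

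Of the Beat genes, beat-VI had the highest mean log2 level. Its protein binds Side-II. It lies on chromosome 3R from 28418208 to 28474814 (BDGP6, gene FBgn0039584). The FPKM of beat-VI was 68.6 and 67.9 in cells 1 and 2 and 250.4 in cell 3, second only to dpr7 among the wiring genes of cell 3. On the log2(FPKM + 1) scale beat-VI exceeded beat-IIIc, the next Beat gene, by 0.63 ± 2.11 (SD, n = 3). This lead was within its spread, and beat-VI was higher in only 1 of 3 cells.

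The genes beat-IIIc and beat-IIIb were above 10 FPKM in every cell, but in cell 3 beat-IIIc ranked only 8th of the 14 Beat genes. In cells 1, 2 and 3 beat-IIIc was at 98.5, 108 and 29.1 FPKM, and beat-IIIb at 73.5, 40.5 and 32.9. Both lie on chromosome 2L with beat-IIIa, the lowest Beat gene, which was listed at 0 in cell 1 and was at 3.87 and 3.26 FPKM in cells 2 and 3. Only 14.5 kb separate beat-IIIa from beat-IIIc, and on the log2(FPKM + 1) scale beat-IIIa minus beat-IIIc was -4.65 ± 1.91 (SD, n = 3), with beat-IIIc higher in 3 of 3 cells. All exon bases of beat-IIIa (100%) are shared with the gene CG34106 on the same strand, which itself was at 0, 0.527 and 0.168 FPKM, so its low value is uncertain.

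The beat-II pair on chromosome 3R, whose proteins bind Side-IV, was at its highest in cell 1. There beat-IIa was at 111 FPKM and beat-IIb at 116. In cells 2 and 3 beat-IIa was at 9.30 and 21.1 and beat-IIb at 45.5 and 34.7. The genes are 55.0 kb apart on the same strand, and beat-IIb was higher in 3 of 3 cells by 0.98 ± 1.08 (log2 scale), a difference within its spread.

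All 3 beat-I genes, neighbours on chromosome 2L, were highest in cell 3. The founding member beat-Ia was at 5.76, 8.23 and 32.1 FPKM in cells 1, 2 and 3. For beat-Ib the FPKM was 18.4, 49.5 and 87.1. For beat-Ic it was 15.8, 17.9 and 25.8, the smallest spread of any Beat gene (SD of log2(FPKM + 1) 0.35, n = 3). The gene beat-VII, farther off on chromosome 3R, had the same cell order at 16.0, 35.0 and 78.1 FPKM.

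The beat-V genes did not share a pattern, although they lie within one stretch of chromosome 3R and all encode ligands of Side-VI. In cells 1, 2 and 3 beat-Vc was at 71.2, 0 and 79.5 FPKM. Cell 2, where it was listed at 0, was the highest for both others, with beat-Va at 0.988, 19.3 and 3.01 and beat-Vb at 2.56, 26.1 and 18.3. The difference of beat-Vc and beat-Va on the log2(FPKM + 1) scale was 5.18, -4.34 and 4.33 in the 3 cells. In cell 2, 3 fragments would have given beat-Vc 0.212 FPKM, while about 1063 and 1173 fragments lay behind its values in cells 1 and 3.

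Neighbouring Dpr genes also differed in how alike they were. The genes dpr15 and dpr17, both of the DIP-gamma group, lie 27.4 kb apart on chromosome 3R. On the log2(FPKM + 1) scale dpr15 minus dpr17 was 0.21 ± 0.38, with dpr15 higher in cells 1 and 3 and dpr17 in cell 2. In cell 1 they were at 1.81 and 0.858 FPKM, on either side of the detection threshold. The genes dpr6 and dpr10, both of the DIP-alpha group and 8.09 kb apart on chromosome 3L, differed by 1.85 ± 0.68, with dpr6 higher in 3 of 3 cells. For dpr4 and dpr5, 27.5 kb apart, dpr4 was higher in cells 1 and 3 and dpr5 in cell 2.

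**Figure D4:**
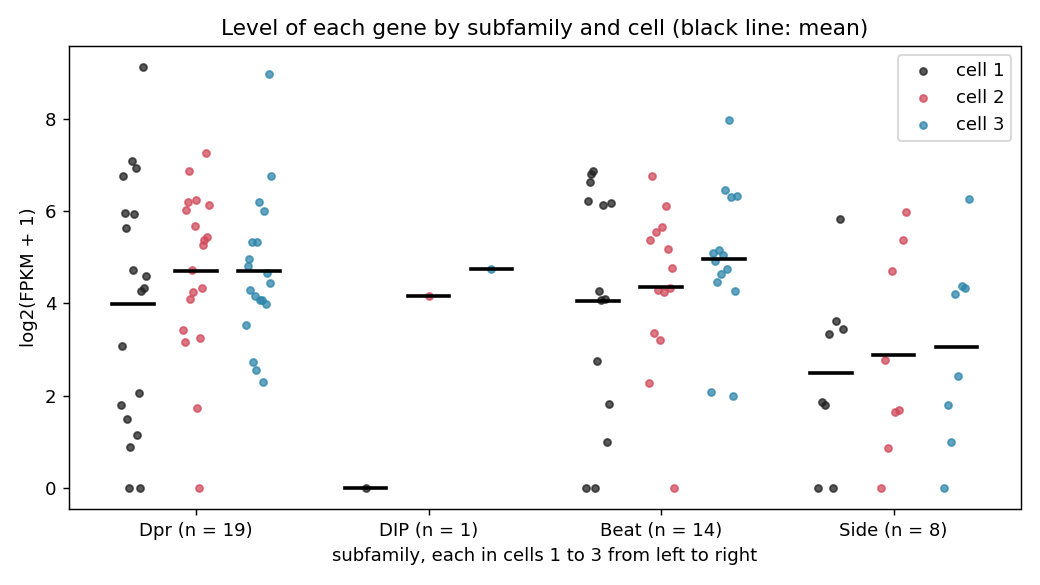
log2(FPKM + 1) of every wiring gene by subfamily and cell, with the mean of each subfamily in each cell as a black line. The mean of the Side genes (2.49, 2.88 and 3.05) lies below those of the Dpr and Beat genes in all 3 cells.

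The Side genes were lower than the Dpr and Beat genes in every cell. Their mean log2(FPKM + 1) was 2.49, 2.88 and 3.05 in cells 1, 2 and 3, against 3.99, 4.71 and 4.69 for Dpr and 4.06, 4.36 and 4.96 for Beat. Within cells, Beat exceeded Side by 1.57, 1.49 and 1.91 (mean 1.66 ± 0.23, SD, n = 3), and Dpr exceeded Side by 1.51, 1.83 and 1.64 (mean 1.66 ± 0.16). Dpr and Beat did not differ beyond their spread (0.00 ± 0.31). The size of the gap, but not its direction, depended on the genes counted. Without side, the difference of Beat and Side was 1.26 ± 0.20. No p-value was computed, as an exact sign-flip test over 3 cells cannot go below 0.25.

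Exon length moved with this difference. The median exon length was 5634 bases for Side genes, against 3222.5 for Beat and 3283 for Dpr. Without division by length, the median number of estimated fragments per gene was 221, 135 and 335 for Side genes in cells 1, 2 and 3, against 552, 422 and 565 for Beat genes, so Side stayed lower by this measure too. Any loss of coverage along long transcripts was not tested. Over the 42 genes, Spearman's correlation of exon length with mean log2 level was -0.26, a description only, as genes of a cell share its library.

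Among the Side genes, which encode transmembrane proteins, side-VIII and side-VII had the highest mean log2 levels. They did not lead in every cell, as side-VI was above side-VIII in cell 1 and above side-VII in cell 3. In cells 1, 2 and 3 side-VIII was at 9.98, 61.9 and 75.3 FPKM, and side-VII at 55.6, 40.3 and 19.3. Their orders of cells were thus opposite. They stood next to each other in mean log2 level, with a difference of 0.05 ± 2.19.

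The FPKM of side-IV was 9.05, 24.97 and 17.5. Antisense RNAs cover 67.5% of its exon bases, and the 2 strands cannot be told apart in these values. For side-VI the FPKM was 11.2, 2.25 and 19.8, and for side-II it was 2.65, 5.85 and 2.48. Lower still were side-V, listed at 0 in cell 1 and at 2.14 and 4.35 in cells 2 and 3, and side-III, at 2.48, 0.817 and 1.01.

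The founding gene side, on chromosome 3R from 27375088 to 27437482 (BDGP6, gene FBgn0016061), was listed at 0 in all 3 cells. At its mean transcript length, 3 fragments would have given an FPKM of 0.0644, 0.0681 and 0.0652. Over all genes, 39.5% were listed at 0 in every cell, and side was the 1 wiring gene of which this was true.

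**Figure D5:**
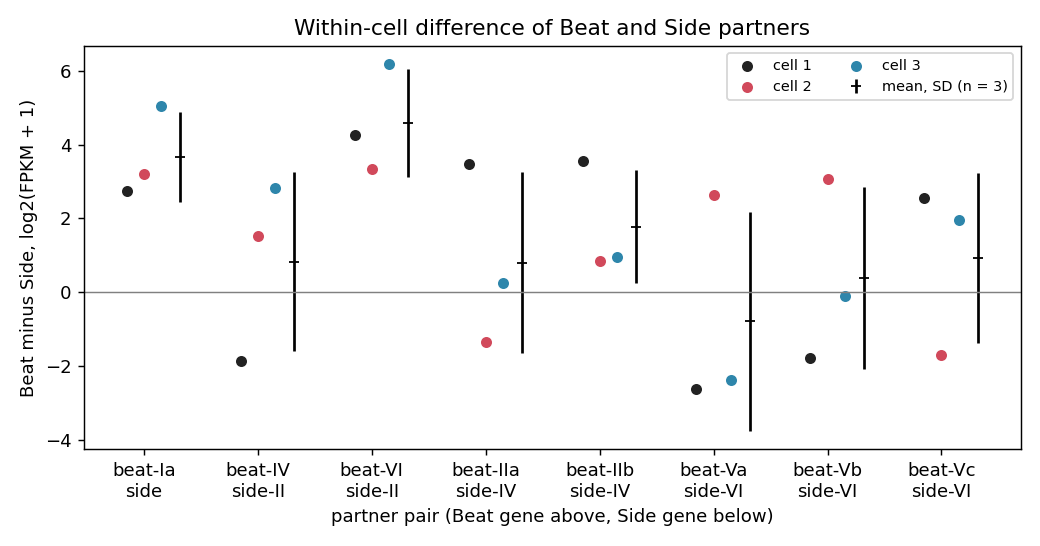
Within-cell difference in log2(FPKM + 1) of each Beat gene and the Side gene whose protein it binds, for 8 pairs, with 1 point for each cell and the mean and SD (n = 3) as a bar. The pair beat-VI and side-II is above 0 in every cell, while the 3 beat-V genes fall on both sides of 0 against side-VI.

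Beat and Side genes whose proteins bind each other were then set side by side, for 8 pairs with values for both genes. Both genes were detected in 5 pairs in cell 1, in 6 in cell 2 and in 7 in cell 3. In 4 pairs both were detected in all 3 cells, namely beat-VI with side-II, beat-IIa and beat-IIb with side-IV, and beat-Vb with side-VI. At an FPKM of at least 10, none of the pairs (0) met this in all 3 cells, since side-II stayed under that level in every cell and side-IV and side-VI in 1 cell each. Pairs share genes, so these counts are not independent. Of all Beat genes 78.6%, 92.9% and 100% were detected in cells 1, 2 and 3, and of all Side genes 75%, 75% and 87.5%. Over all genes the share was 36.8%, 50.7% and 47.2%. Other pairings of Beat and Side genes were not compared, so the counts are no result about binding partners.

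In 2 pairs whose Side gene was above 0 the Beat gene was higher in every cell. It exceeded its partner by 4.25, 3.33 and 6.18 on the log2(FPKM + 1) scale for beat-VI and side-II, and by 3.54, 0.84 and 0.95 for beat-IIb and side-IV. The pair of beat-Ia and side allows no such comparison, since side was listed at 0 in every cell. For side-VI the sign turned between cells. It exceeded beat-Va and beat-Vb in cells 1 and 3 and beat-Vc in cell 2, so that in each cell at least 1 beat-V gene lay below it and at least 1 above it. The gene beat-IV, whose protein binds Side-II, was listed at 0 in cell 1 and was at 18.7 and 23.8 FPKM in cells 2 and 3.

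The profile of the wiring genes was only partly shared between cells. Across the 42 genes, Spearman's correlation with cell 3 was 0.603 in cell 1 and 0.617 in cell 2, and that between cells 1 and 2 was 0.460. These are correlations across genes, which are not independent replicates. The same correlations over all genes were not computed, so whether the wiring genes differ from other genes in this was not tested.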

How the data were processed

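The members, gene lists and binding pairs were chosen with earlier results of these data known. The authors removed low-quality reads, adaptors and the amplification primer, aligned reads to the fly genome, kept mapped reads and deposited FPKM per gene. The labels name HISAT among the tools. The genome build, annotation and quantifier are not given in the sources used here. No molecular identifiers are described.

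Each file held 12180 lines for 11922 FlyBase IDs. Values of the 117 repeated IDs were averaged (0 of them wiring genes). The value recorded for cell 3 was headed with another sample number, and the label's number was kept. Symbols and positions were from BDGP6.54 (Ensembl release 115) and were found for 11794 IDs. Genes listed under older IDs would not have been matched. The files give no depth. It was estimated as the step that best placed low FPKM values of genes with 1 transcript on whole fragments, of which 66.2%, 45.8% and 56.9% lay within 0.1 of a whole number in cells 1, 2 and 3. Fragments per gene use the mean transcript length, and floors are the FPKM of 3 fragments, covering counting error only.

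Levels were log2(FPKM + 1), which understates differences of low genes. With 1 group no test was made, and differences are within cells, as mean ± SD. Every member could be named. Those detected in all 3 cells, and DIP and Side genes with a listed partner, have all 3 values. Binding groups and pairs came from general knowledge (43 pairs, 8 with values). Analyses used Python 3.11.15 and pandas 2.3.3.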

Additional observations from a re-analysis of the deposited data

How the results depend on the processing

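Of 107 values of counts, levels and differences under alternative settings, 88 stayed within the spread between cells or, for counts, within a set fold of the count reported. The rule for counts was loose. It took in falls at an FPKM of at least 10 from 33 to 22 detected genes in cell 1 and from 38 to 28 in cell 2. At an FPKM of at least 10, detection in all 3 cells dropped from 30 genes to 17 (Dpr to 9, Side to 1), and the pairs detected in all 3 cells from 4 to 0. Leaving out a replicate gave 30 to 38 genes, most without replicate 1, where the 1 DIP gene entered (0 to 1), and 4 to 6 pairs. Detection was then asked of the remaining cells only, so these counts could not fall below 30 and 4. They are nonetheless among the 107 values. The median of the mean FPKM over genes was 26.7 and ranged from 21.0 to 22.1 across these fits. Rescaling each cell to a common sum raised it to 52.5, and the mean log2 levels to 5.31 for Dpr, 5.30 for Beat and 3.49 for Side, a matter of scale.

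The difference of Beat and Side stayed positive. It was 2.10 at a pseudocount of 0.1, 1.26 with only genes detected in at least 1 cell and 2.07 without genes whose exons overlap another gene. That of Dpr and Side, added after seeing the data, was 2.14, 1.26 and 1.95 under these and 1.96 with medians. The Side level itself went to 2.03 at a pseudocount of 0.1 and to 3.21 with only detected genes. The difference of Dpr and DIP-kappa fell from 1.49 to 0.24 without replicate 1, which still counts as within its wide spread of 2.19. No paired analysis was possible because there is only 1 group. With 3 libraries and estimated depths, values listed at 0 limit statements to their floors. As the floors cover counting error only, a value of 0 does not show that a transcript was absent from the cells.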
